A study of Mus musculus with 24 samples.

Results

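The genes described here are the chemokines and the chemokine receptors of the mouse: every gene named Ccl, Cxcl, Ccr or Cxcr with a number, plus Cx3cl1, Cx3cr1, Xcl1 and Xcr1. This rule found 55 of 24319 genes in the whole liver table (37 ligands and 18 receptors) and 57 of 24319 in the isolated hepatocyte table (39 ligands and 18 receptors). Ccl21a and Ccl21b were listed jointly with neighbouring genes in the liver table and so were not members there. PolyA RNA was sequenced from livers or isolated hepatocytes of 2-month-old male C57/BL6 mice, with 3 biological replicates in each of 8 groups. The groups were Double KO (Alb-Cre+;IkkBf/f;Shp2f/f), Shp2 KO (Alb-Cre+;Shp2f/f), IkkB KO (Alb-Cre+;IkkBf/f) and WT. Cre is driven by the albumin promoter in every knockout, so deletion is directed to hepatocytes while other liver cells keep the floxed genes, and the labels give the WT mice no Cre or floxed allele. Ikbkb encodes IkkB, the kinase that switches on NF-κB, and Ptpn11 encodes Shp2, a phosphatase that promotes Ras-Erk signalling. RNA was extracted with a different kit for liver than for hepatocytes, and each sample type has a table of its own, so no level is set across the tables.

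Chemokines are small secreted proteins that direct the migration of leukocytes, which sense them through receptors coupled to G proteins. In the liver they are made by hepatocytes, endothelial cells, Kupffer cells and stellate cells, and they recruit neutrophils, monocytes and lymphocytes. Many inflammatory chemokine genes are known targets of NF-κB, and others are induced by interferon or made constantly to keep resident leukocytes in place.

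The promoters of Cxcl1, Cxcl2, Cxcl3 and Cxcl10 are shown because NF-κB is the factor downstream of one of the deleted genes and Cxcl1 fell in every knockout. Each line gives the 160 bases before the start of the gene, 5′ to 3′ on the gene's strand, from RefSeq on build GRCm38.p6. Capitals mark matches to the NF-κB consensus on either strand.
Cxcl1: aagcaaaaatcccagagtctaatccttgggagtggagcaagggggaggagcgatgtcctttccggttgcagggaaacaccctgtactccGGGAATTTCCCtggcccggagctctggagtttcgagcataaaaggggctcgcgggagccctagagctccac
Cxcl2: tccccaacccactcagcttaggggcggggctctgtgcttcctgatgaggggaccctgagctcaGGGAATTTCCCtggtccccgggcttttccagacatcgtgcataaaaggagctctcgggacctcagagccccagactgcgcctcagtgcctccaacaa
Cxcl3: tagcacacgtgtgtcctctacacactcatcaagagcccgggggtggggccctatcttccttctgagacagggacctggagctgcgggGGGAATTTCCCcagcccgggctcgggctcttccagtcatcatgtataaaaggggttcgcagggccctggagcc
Cxcl10: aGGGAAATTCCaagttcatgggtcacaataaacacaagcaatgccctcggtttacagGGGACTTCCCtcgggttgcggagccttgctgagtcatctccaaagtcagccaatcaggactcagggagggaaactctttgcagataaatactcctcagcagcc
The stretches lie at chr5:90891085-90891244 for Cxcl1, chr5:90903739-90903898 for Cxcl2 and chr5:90785941-90786100 for Cxcl3, all on the plus strand. The stretch of Cxcl10 lies at chr5:92348890-92349049 on the minus strand. In Cxcl1, Cxcl2 and Cxcl3 the match on one strand overlaps a match on the other and forms a single run of the same letters. Cxcl10 holds a pair of separate matches. Of 57 members in the tables, 41 had a promoter in the RefSeq set, which covers 250 bases before to 50 bases after the start, and 9 of the 41 (22%) held a match. Among all genes of the set, 1388 of 27025 (5.14%) held one. The other members with a match were Ccl9, Ccl20, Ccl27a, Ccr3 and Ccr6. A match describes the letters only.

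Each table holds a single value per gene and genotype, pooled over 3 libraries, in a unit that by the convention of Cuffdiff is FPKM (fragments scaled to gene length and to sequencing depth). It holds no value per library, so no SD can be given, and the only measure of replicate error is the q-value of the authors' Cuffdiff test. All levels, log2 fold changes and q-values below are from the authors' deposited tables. A gene is said to have risen or fallen where q was under 0.05 and the level reached 0.1 in 1 of the 2 genotypes compared. All comparisons with WT in a table share the same 3 WT libraries, so a change in several knockouts is not independent evidence. Ikbkb stood at 6.31 (Double KO), 14.2 (Shp2 KO), 9.48 (IkkB KO) and 15.7 (WT) in liver, and Ptpn11 at 6.09 (Double KO), 4.09 (Shp2 KO), 10.1 (IkkB KO) and 12.5 (WT), so each gene was lower than in WT in the genotypes named for its loss.

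In WT liver a single ligand, Cxcl12, made up 54.4% of the summed level of all members, and in WT hepatocytes 56.9%. Cxcl12 retains Cxcr4-bearing leukocytes and stem cells in tissues. Its level in liver was 131 in Double KO, 124 in Shp2 KO and 123 in IkkB KO, against 112 in WT. In hepatocytes it was 91.0 in Double KO, 116 in Shp2 KO and 123 in IkkB KO, against 114 in WT. None of these differences from WT passed the Cuffdiff test in the authors' deposited tables, with the lowest q at 0.666 in liver and 0.362 in hepatocytes. After Cxcl12 the highest levels in WT liver were those of Ccl9, Cxcl1, Ccl27a and Ccl6. In WT hepatocytes they were those of Cxcl1, Ccl9, Ccl27a and Cxcl9.

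**Figure D1:**
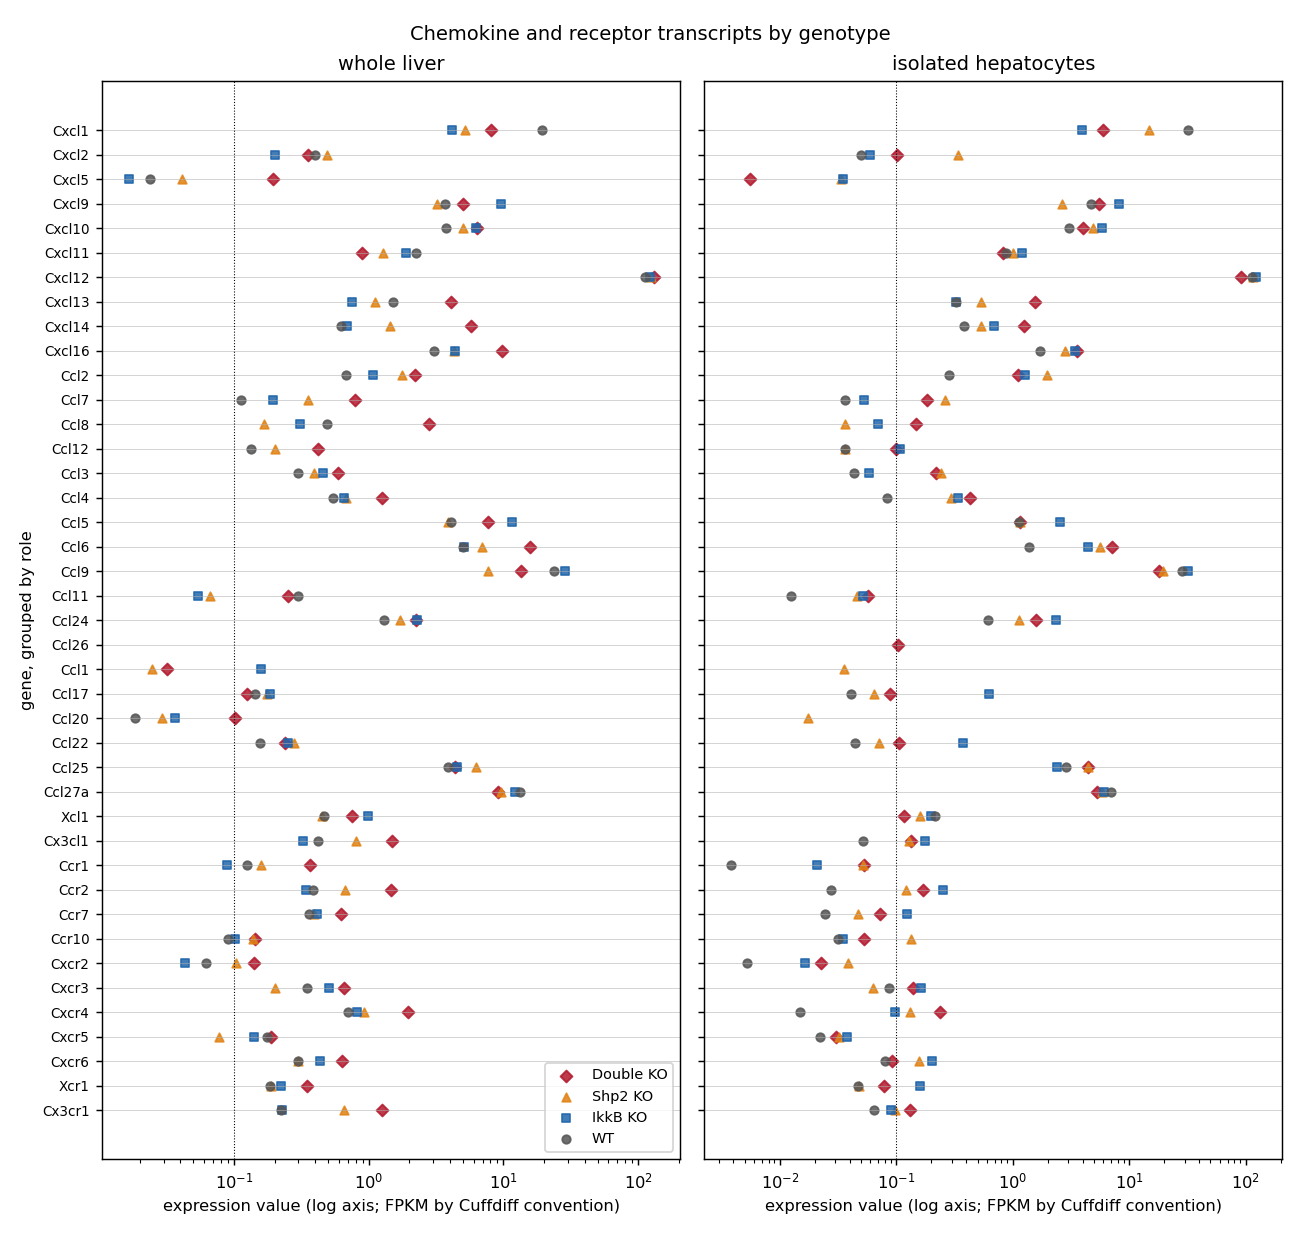
Expression value (log axis, FPKM by the convention of Cuffdiff) of the chemokines and receptors that reached 0.1 in a genotype, grouped by role, for whole liver and isolated hepatocytes; each point is the pooled value of a genotype and the dotted line marks 0.1. Cxcl12 stands far right of every other gene in both tables, and receptors lie mostly near the left end.

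In liver 41 members reached a level of 0.1 in at least 1 genotype, 29 ligands and 12 receptors. The other 14 were treated as not expressed: Ccl19, Ccl21c, Ccl26, Ccl27b, Ccl28, Ccr3, Ccr4, Ccr6, Ccr8, Ccr9, Cxcl15, Cxcl17, Cxcl3 and Cxcr1. Of these, 7 were listed at 0 in every genotype. In hepatocytes 35 members reached that level, 26 ligands and 9 receptors. The remaining 22 included Cxcl3 and Cxcl5, which attract neutrophils, their receptors Cxcr1 and Cxcr2, and Ccr1, a receptor of monocytes and neutrophils. Levels of Ccl27a and Ccl27b and of the Ccl21 copies are uncertain, since near-identical genes can share reads.

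Against WT the Double KO liver had the most members past the threshold among the 3 knockouts. There 12 members rose and 2 fell in the authors' deposited values, of 32 tested and 55 in all. Among all genes tested in that comparison, 11.5% rose and 6.62% fell. The median log2 fold change was 1.03 over the tested members and -0.04 over all tested genes. In Shp2 KO liver 3 members rose and 2 fell of 28 tested, where 5.23% of all tested genes rose and 4.1% fell. In IkkB KO liver 2 rose and 1 fell of 27 tested, where 2.37% of all tested genes rose and 2.17% fell. Medians over the tested members were 0.34 in Shp2 KO and 0.21 in IkkB KO, beside -0.04 over all tested genes for Shp2 KO and -0.02 for IkkB KO. Where the WT value is near 0, Cuffdiff tests a member mainly if the knockout value is high, so these counts and medians describe the tested members and not the family.

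**Figure D2:**
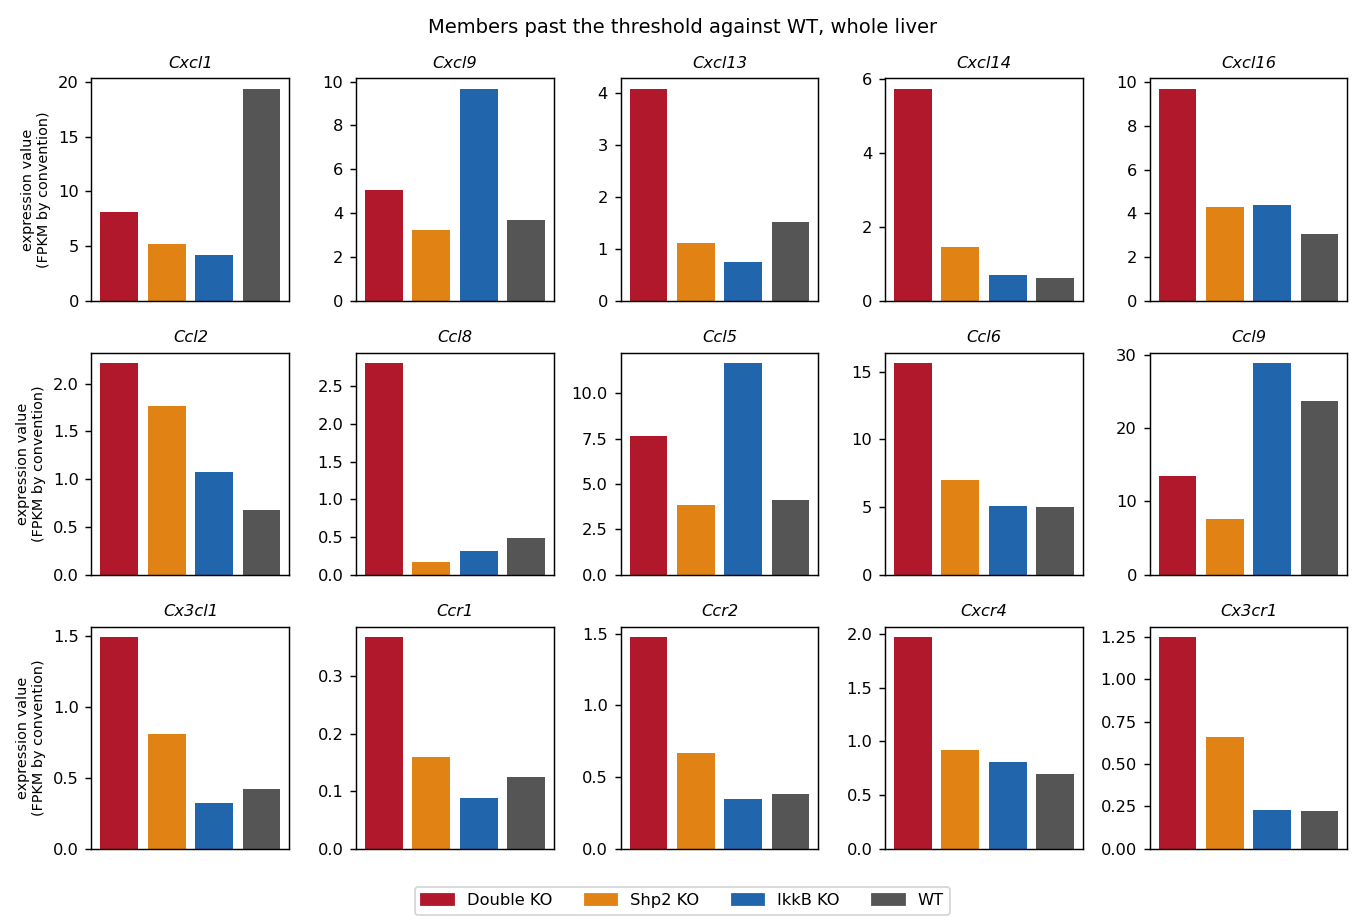
Levels (FPKM by the convention of Cuffdiff, a separate linear axis from 0 for each gene) of the members named in the text that passed the threshold against WT in whole liver, with Double KO, Shp2 KO, IkkB KO and WT bars from left to right; each bar is a pooled value with no replicate error. Most panels are highest in Double KO, while Cxcl1 and Ccl9 are higher in WT than in Double KO and Cxcl9 and Ccl5 peak in IkkB KO.

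In hepatocytes 7 members rose and 2 fell in Double KO against WT, of 17 tested, beside 9.04% and 4.56% of all tested genes. In Shp2 KO hepatocytes 3 rose and 2 fell of 17 tested, beside 7.13% and 4.53%. In IkkB KO hepatocytes 6 rose and 1 fell of 19 tested, beside 7.6% and 1.81%. The medians over the tested members were 0.62 in Double KO, 0.61 in Shp2 KO and 0.92 in IkkB KO, and those over all tested genes were 0.01 in Double KO, -0.01 in Shp2 KO and 0.00 in IkkB KO.

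**Figure D3:**
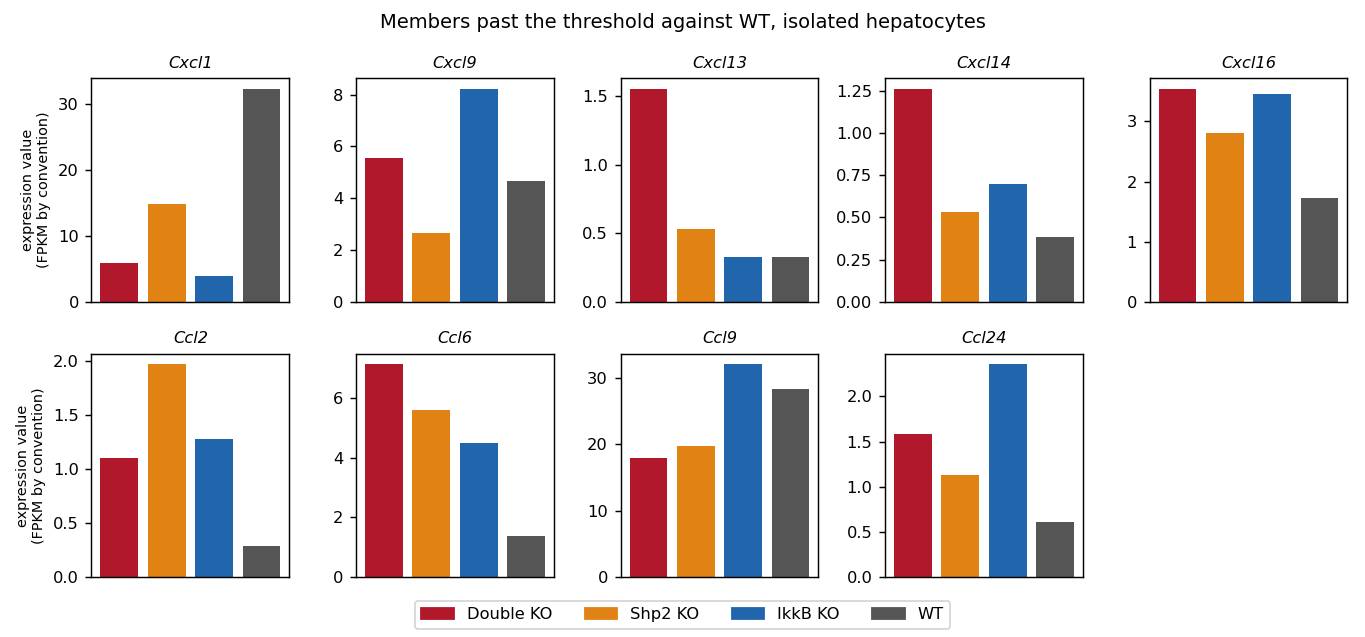
Levels (FPKM by the convention of Cuffdiff, a separate linear axis from 0 for each gene) of the members named in the text that passed the threshold against WT in isolated hepatocytes, with Double KO, Shp2 KO, IkkB KO and WT bars from left to right; each bar is a pooled value with no replicate error. Cxcl1 is highest in WT, while Ccl2, Ccl6 and Ccl24 are lowest in WT.

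Among the chemokines that attract neutrophils through Cxcr2, Cxcl1 fell in every knockout in both tables. Its level in liver was 8.15 in Double KO, 5.16 in Shp2 KO and 4.16 in IkkB KO, against 19.4 in WT. The log2 fold changes against WT were -1.25 in Double KO, -1.91 in Shp2 KO and -2.22 in IkkB KO, each with a Cuffdiff q of 0.000955 in the authors' deposited table. The liver level was highest in WT and the Double KO level lay above both single knockouts. Double KO exceeded IkkB KO by 0.97 on the log2 scale (q = 0.00945), whereas the difference of 0.66 from Shp2 KO did not pass (q = 0.136).

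In hepatocytes Cxcl1 stood at 5.93 in Double KO, 14.8 in Shp2 KO and 3.90 in IkkB KO, against 32.2 in WT. Against WT its log2 fold change was -2.44 in Double KO (q = 0.00048), -1.12 in Shp2 KO (q = 0.00263) and -3.04 in IkkB KO (q = 0.00048), in the authors' deposited table. Both genotypes that lack IkkB were far below Shp2 KO, and Double KO was below Shp2 KO by a log2 fold change of -1.32 (q = 0.00048). Double KO and IkkB KO differed by 0.60, which did not pass (q = 0.232). Cxcl2, a close relative with the same receptor, was low throughout. Its liver level was 0.353 in Double KO, 0.493 in Shp2 KO and 0.201 in IkkB KO, against 0.401 in WT, and no comparison with WT passed. Cxcl5 reached 0.195 in Double KO liver and stayed between 0.0165 and 0.0415 in the other genotypes, and Cuffdiff did not test it.

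The Cxcr3 ligands Cxcl9, Cxcl10 and Cxcl11 are induced by interferon and attract activated T cells and NK cells. Cxcl9 was highest in IkkB KO in both tables. In liver it stood at 5.05 in Double KO, 3.21 in Shp2 KO and 9.66 in IkkB KO, against 3.67 in WT. It rose in IkkB KO liver by a log2 fold change of 1.40 (q = 0.000955 in the authors' deposited table), and the Double KO lay below IkkB KO by -0.94 (q = 0.000955). In hepatocytes Cxcl9 stood at 5.54 in Double KO, 2.64 in Shp2 KO and 8.21 in IkkB KO, against 4.68 in WT. There it fell in Shp2 KO (log2 fold change -0.82, q = 0.0206) and rose in IkkB KO (0.81, q = 0.00662). The Double KO lay between the single knockouts in both tables.

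Cxcl10 passed no comparison with WT. Its liver level was 6.35 in Double KO, 4.98 in Shp2 KO and 6.31 in IkkB KO, against 3.77 in WT, and its lowest q against WT was 0.143. Cxcl11 stood at 0.885 in Double KO, 1.28 in Shp2 KO and 1.89 in IkkB KO, against 2.23 in WT liver, with a lowest q of 0.201.

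Among the other CXC chemokines, Cxcl13, Cxcl14 and Cxcl16 rose in Double KO in both tables. Cxcl14 is made by epithelial cells and fibroblasts. In liver it stood at 5.74 in Double KO, 1.45 in Shp2 KO and 0.693 in IkkB KO, against 0.628 in WT. It rose by a log2 fold change of 3.19 in Double KO (q = 0.000955) and 1.20 in Shp2 KO (q = 0.00994) in the authors' deposited table, and not in IkkB KO (0.14, q = 0.922). In hepatocytes its level was 1.26 in Double KO, 0.534 in Shp2 KO and 0.697 in IkkB KO, against 0.384 in WT, with a rise in Double KO of 1.71 (q = 0.00865).

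Cxcl16, a membrane-bound ligand of Cxcr6 on NKT cells and T cells, stood in liver at 9.69 in Double KO, 4.29 in Shp2 KO and 4.37 in IkkB KO, against 3.06 in WT. It rose in Double KO by a log2 fold change of 1.66 (q = 0.000955 in the authors' deposited table), and Double KO exceeded IkkB KO by 1.15 and Shp2 KO by 1.17 (q = 0.000955 each). In hepatocytes it stood at 3.54 in Double KO, 2.81 in Shp2 KO and 3.45 in IkkB KO, against 1.73 in WT. It rose there in Double KO (1.03, q = 0.0198) and in IkkB KO (1.0, q = 0.0265), the second of which was lost when p-values were adjusted within that comparison (q = 0.0729).

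Cxcl13 attracts B cells through Cxcr5. Its level in liver was 4.07 in Double KO, 1.11 in Shp2 KO and 0.749 in IkkB KO, against 1.51 in WT. The rise in Double KO was 1.43 on the log2 scale (q = 0.00175 in the authors' deposited table), while neither single knockout passed. In hepatocytes it was 1.55 in Double KO, 0.532 in Shp2 KO and 0.327 in IkkB KO, against 0.327 in WT, with a rise in Double KO of 2.24 (q = 0.0183). Double KO was the highest genotype in both tables.

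The monocyte-attracting CC chemokines are led by Ccl2, the main ligand of Ccr2. Ccl2 stood in liver at 2.21 in Double KO, 1.77 in Shp2 KO and 1.08 in IkkB KO, against 0.675 in WT. It rose by a log2 fold change of 1.71 in Double KO (q = 0.00945) and 1.39 in Shp2 KO (q = 0.0293) in the authors' deposited table. In hepatocytes it was 1.11 in Double KO, 1.97 in Shp2 KO and 1.28 in IkkB KO, against 0.285 in WT. It rose there in Double KO by 1.96 (q = 0.031), in Shp2 KO by 2.79 (q = 0.00662) and in IkkB KO by 2.17 (q = 0.0204). Adjusted within each comparison, the hepatocyte rise was lost in Double KO (q = 0.0578) and in IkkB KO (q = 0.0571).

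Ccl8, which in mouse is a ligand of Ccr8, stood in liver at 2.80 in Double KO, 0.166 in Shp2 KO and 0.309 in IkkB KO, against 0.491 in WT. It rose in Double KO against WT by 2.51 (q = 0.0119) and exceeded IkkB KO by 3.18 (q = 0.0166), in the authors' deposited table. The difference of 4.08 from Shp2 KO did not pass (q = 0.0929). Ccl12 stood in liver at 0.421 in Double KO, 0.203 in Shp2 KO and 0 in IkkB KO, against 0.134 in WT. The difference between Double KO and IkkB KO passed (q = 0.000955), and no fold is given because IkkB KO is listed at 0. Ccl7 was 0.790 in Double KO, 0.353 in Shp2 KO and 0.194 in IkkB KO, against 0.113 in WT, with q = 0.0977 for Double KO against WT.

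The inflammatory CC chemokines of macrophages and T cells did not move together. Ccl6, a macrophage chemokine of the mouse, stood in liver at 15.6 in Double KO, 6.99 in Shp2 KO and 5.06 in IkkB KO, against 4.98 in WT, and rose in Double KO by 1.65 (q = 0.000955 in the authors' deposited table). In hepatocytes it stood at 7.12 in Double KO, 5.57 in Shp2 KO and 4.48 in IkkB KO, against 1.38 in WT. It rose there in Double KO (2.37, q = 0.00048), Shp2 KO (2.01, q = 0.00048) and IkkB KO (1.70, q = 0.00127). WT was the lowest genotype in both tables.

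Ccl9, another mouse chemokine of that group, fell in liver in both genotypes that lack Shp2. In liver it stood at 13.5 in Double KO, 7.64 in Shp2 KO and 28.8 in IkkB KO, against 23.7 in WT. The log2 fold change was -0.81 in Double KO and -1.63 in Shp2 KO (q = 0.000955 each), and 0.29 in IkkB KO (q = 0.411), in the authors' deposited table. In hepatocytes it stood at 18.0 in Double KO, 19.7 in Shp2 KO and 32.0 in IkkB KO, against 28.3 in WT, and fell in Double KO (-0.65, q = 0.0106) while Shp2 KO did not pass (-0.52, q = 0.059).

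Ccl5, which attracts T cells and monocytes, stood in liver at 7.64 in Double KO, 3.86 in Shp2 KO and 11.7 in IkkB KO, against 4.11 in WT. It rose in IkkB KO by 1.5 (q = 0.00175) and not in Double KO (0.89, q = 0.0893) or Shp2 KO (-0.09, q = 0.955), in the authors' deposited table. The hepatocyte level was 1.15 in Double KO, 1.17 in Shp2 KO and 2.54 in IkkB KO, against 1.12 in WT, and no comparison passed. Both Ccl5 and Cxcl9 were highest in IkkB KO. Ccl3 and Ccl4, further chemokines of that kind, stayed under 1.25 in liver and passed no comparison with WT.

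Ccl24, an eotaxin that attracts eosinophils through Ccr3, did not pass in liver, where it stood at 2.26 in Double KO, 1.69 in Shp2 KO and 2.26 in IkkB KO, against 1.31 in WT. In hepatocytes it stood at 1.58 in Double KO, 1.13 in Shp2 KO and 2.35 in IkkB KO, against 0.613 in WT. It rose there in Double KO (1.37, q = 0.0383) and in IkkB KO (1.94, q = 0.00582), the first of which was lost when adjusted within that comparison (q = 0.0702).

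Among the homeostatic ligands, Ccl25, which guides T cells through Ccr9, stood in liver at 4.35 in Double KO, 6.24 in Shp2 KO and 4.52 in IkkB KO, against 3.88 in WT. Ccl27a, a ligand of Ccr10, stood at 9.05 in Double KO, 9.55 in Shp2 KO and 12.3 in IkkB KO, against 13.3 in WT. Neither passed a comparison with WT in either table. Ccl17 and Ccl22, ligands of Ccr4, were highest in IkkB KO hepatocytes, at 0.623 and 0.373, beside 0.0408 and 0.0443 in WT. Their q-values there were 0.396 and 0.065.

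Cx3cl1, a membrane-anchored chemokine, and its receptor Cx3cr1 on monocytes and macrophages both rose in Double KO liver. Cx3cl1 stood at 1.49 in Double KO, 0.810 in Shp2 KO and 0.324 in IkkB KO, against 0.420 in WT, a log2 fold change of 1.83 in Double KO (q = 0.000955 in the authors' deposited table). Cx3cr1 stood at 1.25 in Double KO, 0.658 in Shp2 KO and 0.229 in IkkB KO, against 0.225 in WT. It rose by 2.47 in Double KO (q = 0.000955) and 1.55 in Shp2 KO (q = 0.00315). In hepatocytes neither gene was tested against WT. Xcl1, a chemokine of T cells and NK cells, passed no comparison with WT in liver.

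Among the receptors, Cx3cr1, Ccr1, Ccr2 and Cxcr4 rose in Double KO liver. Ccr2, which brings monocytes out of the bone marrow, stood at 1.47 in Double KO, 0.669 in Shp2 KO and 0.345 in IkkB KO, against 0.385 in WT. It rose in Double KO by 1.94 (q = 0.000955 in the authors' deposited table). The Double KO was the highest genotype, and its differences from both single knockouts passed.

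Cxcr4, the receptor of Cxcl12, stood in liver at 1.97 in Double KO, 0.919 in Shp2 KO and 0.812 in IkkB KO, against 0.700 in WT, a rise in Double KO of 1.49 (q = 0.00175 in the authors' deposited table). Ccr1 was 0.368 in Double KO, 0.159 in Shp2 KO and 0.0887 in IkkB KO, against 0.126 in WT, a rise in Double KO of 1.55 (q = 0.0234). Cxcr3, the receptor of Cxcl9, was 0.661 in Double KO, 0.201 in Shp2 KO and 0.507 in IkkB KO, against 0.347 in WT. It passed between Double KO and Shp2 KO (1.72, q = 0.0138) and not against WT.

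**Figure D4:**
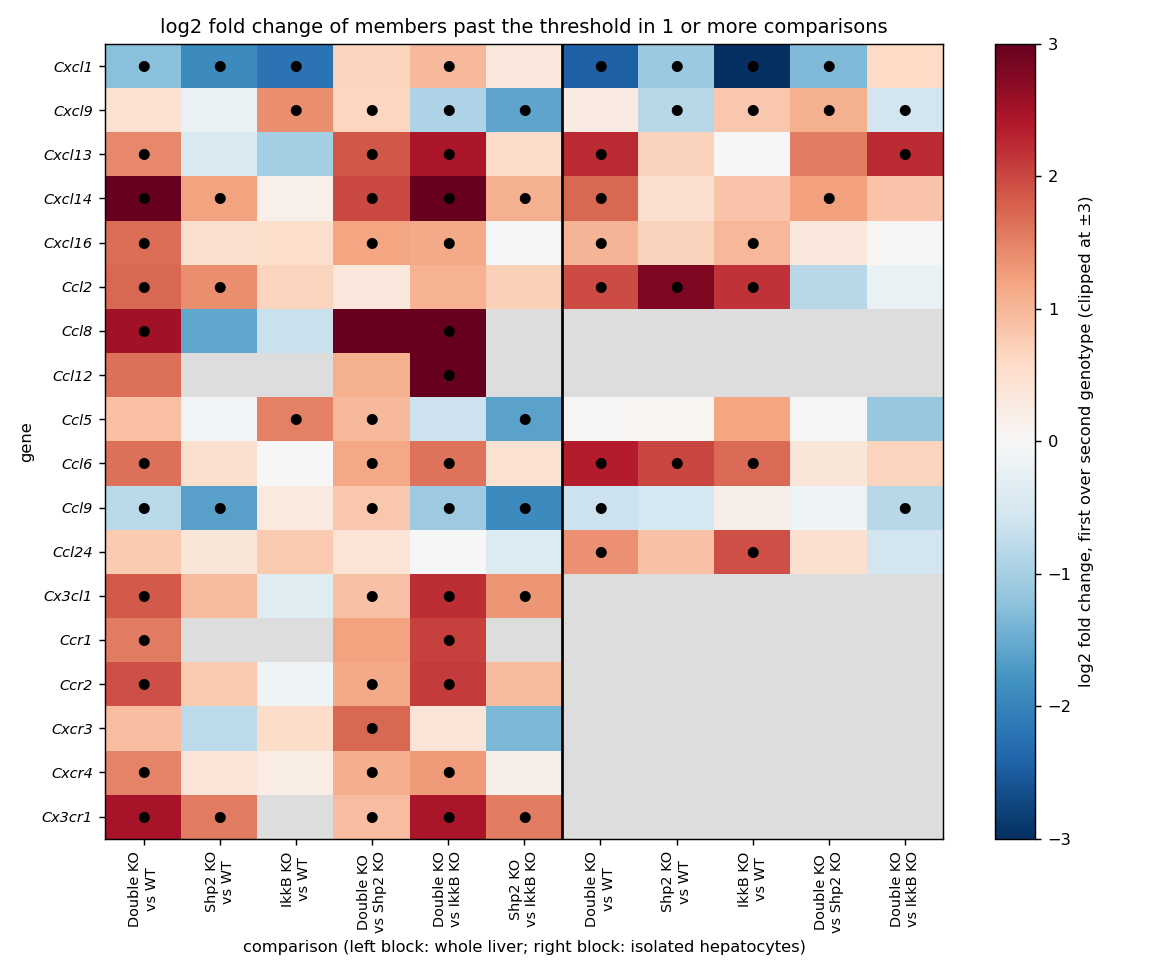
Log2 fold change of members that passed the threshold in a comparison, Double KO, Shp2 KO and IkkB KO against WT and then knockout against knockout, in whole liver and isolated hepatocytes; colour is limited to 3 in either direction, a dot marks a member that passed the threshold and grey marks pairs that Cuffdiff did not test. Dots are most frequent in the Double KO columns of the liver panel.

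Double KO and the single knockouts were compared directly. In liver 13 members were higher and 2 lower in Double KO than in IkkB KO, of 32 tested, beside 11.5% and 7.5% of all tested genes. Against Shp2 KO, 13 were higher of 32 tested, beside 7.94% of all tested genes. By Cuffdiff 0 members were lower there, beside 2.83% of all tested genes, and 1 was lower at an unadjusted p under 0.05. In hepatocytes 1 member was higher and 2 lower in Double KO than in IkkB KO of 19 tested, beside 5.75% and 5.62% of all tested genes. Against Shp2 KO, 2 were higher and 1 lower of 18 tested, beside 3.44% and 3.31%. These comparisons share the Double KO samples with each other and with the comparison to WT.

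Shp2 KO was set against IkkB KO in the liver table, where 3 members were higher and 3 lower in Shp2 KO of 28 tested, beside 5.43% and 4.84% of all tested genes. Cxcl14, Cx3cl1 and Cx3cr1 were the higher ones, with log2 fold changes of 1.06 (q = 0.027), 1.32 (q = 0.00838) and 1.52 (q = 0.00175) in the authors' deposited table. Cxcl9, Ccl5 and Ccl9 were the lower ones, at -1.59, -1.59 and -1.92 (q = 0.000955 each). The hepatocyte table analysed here compared 5 pairs, without this one.

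For each member the log2 change in Double KO was set beside the sum of the 2 single changes, from log2(level + 1), as a description with no test. In liver Cxcl1 had a change of -1.16 in Double KO against a sum of -3.71, a difference of 2.55. The difference was 1.89 for Ccl8, 1.78 for Cxcl13, 1.41 for Cxcl14 and 1.04 for Ccl6, and -0.67 for Cxcl9. In hepatocytes the difference was 1.57 for Cxcl1, 0.74 for Cxcl13, -1.32 for Ccl2, -0.90 for Ccl6 and -0.78 for Ccl24. Cxcl1 stood above the sum of its single changes in both tables.

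Other genes of chemokine biology were counted from lists. Of 21 tested genes of chemokine receptor signalling, 9 rose in Double KO liver, beside 11.5% of all tested genes, among them Dock2, a Rac activator of leukocytes (1.14 in Double KO, 0.329 in Shp2 KO and 0.627 in IkkB KO, against 0.369 in WT), and Rac2, a leukocyte GTPase (6.36 in Double KO, 3.01 in Shp2 KO and 3.84 in IkkB KO, against 2.51 in WT). In IkkB KO liver 0 of 20 tested rose or fell by Cuffdiff, beside 2.37% and 2.17% of all tested genes. At an unadjusted p under 0.05, 3 were higher there. In Shp2 KO liver 0 of 19 tested rose or fell, beside 5.23% and 4.1%, and 0 had an unadjusted p under 0.05. These counts of 0 are near the shares over all genes. In hepatocytes 5 of 16 tested rose in Double KO, 2 of 14 in Shp2 KO and 7 of 18 in IkkB KO, beside 9.04% of all tested genes in Double KO, 7.13% in Shp2 KO and 7.6% in IkkB KO. The Shp2 KO count is near the share over all genes.

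Of 7 tested atypical chemokine receptors and relatives, 2 rose in Double KO liver (beside 11.5% of all tested genes), Cmklr1, the chemerin receptor, and Ackr2, which removes inflammatory CC chemokines. Ackr2 stood at 1.64 in Double KO, 2.17 in Shp2 KO and 0.731 in IkkB KO, against 0.860 in WT, and rose in Double KO (q = 0.0161) and Shp2 KO (q = 0.000955) in the authors' deposited table. In hepatocytes it stood at 2.12 in Double KO, 1.37 in Shp2 KO and 0.802 in IkkB KO, against 0.484 in WT, and rose in Double KO (q = 0.00048) and Shp2 KO (q = 0.00413). Both tables place Ackr2 highest in the genotypes without Shp2. In hepatocytes 3 of 6 tested genes of this list rose in Double KO, 1 in Shp2 KO (Ackr2) and 3 in IkkB KO. Among all tested genes in hepatocytes 9.04% rose in Double KO, 7.13% in Shp2 KO and 7.6% in IkkB KO. Of the platelet chemokines and other chemoattractant genes, 2 of 8 tested rose in Double KO liver (beside 11.5% of all tested genes), the receptors C5ar1 and Fpr1. In hepatocytes 2 of 7 rose in Double KO, 2 of 7 in Shp2 KO and 2 of 6 in IkkB KO, beside the same 9.04%, 7.13% and 7.6% of all tested genes. Of the genes for proteoglycans and proteases that bind or cut chemokines, 4 rose and 1 fell of 16 tested in Double KO liver, where 11.5% of all tested genes rose and 6.62% fell. In Shp2 KO liver 2 rose and 1 fell of 15, where 5.23% rose and 4.1% fell. The falls are near the share over all genes. In IkkB KO liver 0 of 14 passed the Cuffdiff test, where 2.37% of all tested genes rose and 2.17% fell. There 0 of the 14 had an unadjusted p under 0.05. In hepatocytes 3 rose and 1 fell of 15 in Double KO, beside 9.04% and 4.56% of all tested genes. In Shp2 KO hepatocytes 1 rose and 1 fell of 14, beside 7.13% and 4.53%. In IkkB KO hepatocytes 2 rose and 0 fell of 14, beside 7.6% and 1.81%. The hepatocyte falls and the Shp2 KO rise are near the shares over all genes.

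Markers of the cells that carry these receptors moved in the same tables, and in bulk samples fewer cells of a type and less RNA per cell cannot be told apart. The summed level of 15 macrophage markers in liver was 805 in Double KO, 400 in Shp2 KO and 380 in IkkB KO, against 292 in WT. Of these markers 13 rose in Double KO liver, 5 in Shp2 KO and 2 in IkkB KO, beside 11.5%, 5.23% and 2.37% of all tested genes. In hepatocytes the sum was 362 in Double KO, 284 in Shp2 KO and 341 in IkkB KO, against 117 in WT. There 15 rose in Double KO, 12 in Shp2 KO and 13 in IkkB KO, beside 9.04%, 7.13% and 7.6% of all tested genes. The macrophage sum was lowest in WT in both tables, as were the stellate cell sum and Ccl6. In IkkB KO liver Ccl6 was 5.06 against 4.98 in WT, where the macrophage sum was 380 against 292. In hepatocytes the neutrophil, B cell, dendritic cell, endothelial and bile duct sums were lowest in WT too. Clec4f, a Kupffer cell receptor, was detected in the isolated hepatocyte samples, at 42.1 in Double KO, 30.5 in Shp2 KO and 34.0 in IkkB KO, against 14.4 in WT.

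Other marker lists had their own order. In liver the monocyte sum was 18.0 in Double KO, 9.93 in Shp2 KO and 5.67 in IkkB KO, against 6.64 in WT, and the neutrophil sum was 32.4 in Double KO, 11.3 in Shp2 KO and 7.86 in IkkB KO, against 12.5 in WT. Ly6c1, a gene of the monocyte list, was 0.631 in IkkB KO liver against 2.72 in WT (Cuffdiff q = 0.000955). That drop was larger than the drop of the whole monocyte sum. Of 5 tested monocyte markers it was the 1 that fell there, and 0 rose, beside 2.17% and 2.37% of all tested genes. In hepatocytes the monocyte sums were between 2.86 and 4.15 and the neutrophil sums between 1.31 and 3.28. Ly6c1 made up 53.1% of the monocyte sum in WT hepatocytes and 9.73% in IkkB KO. Without Ly6c1 that sum was 2.85 in Double KO, 3.02 in Shp2 KO and 2.58 in IkkB KO, against 1.72 in WT, so IkkB KO turned from below to above WT. Of 6 tested neutrophil markers, Csf3r, S100a8 and S100a9 rose in Double KO liver against WT, beside 11.5% of all tested genes. All 6 were higher in Double KO than in Shp2 KO liver, beside 7.94% of all tested genes. Another neutrophil marker, Mpo, stayed under 0.1 in every genotype of both tables.

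The T and NK cell sum in liver was 19.4 in Double KO, 16.0 in Shp2 KO and 25.8 in IkkB KO, against 13.9 in WT, and Zap70 alone made up between 53.2% and 73.7% of it. Without Zap70 it was 8.78 in Double KO, 4.22 in Shp2 KO and 12.1 in IkkB KO, against 6.32 in WT, so Shp2 KO turned from above to below WT. Gzmb, Cd8a and Zap70 rose in IkkB KO liver, where Cxcl9 and Ccl5 rose, and Zap70 rose in Shp2 KO liver as well (q = 0.0209 in the authors' deposited table). In hepatocytes the sum was 14.6 in Double KO, 15.4 in Shp2 KO and 18.9 in IkkB KO, against 18.0 in WT, and Zap70 made up between 80.0% and 93.0% of it. Without Zap70 it was 1.37 in Double KO, 1.93 in Shp2 KO and 3.78 in IkkB KO, against 1.25 in WT. By Cuffdiff 0 of 5 tested T and NK cell markers rose in IkkB KO hepatocytes, beside 7.6% of all tested genes. Of the 5, 2 were higher at an unadjusted p under 0.05, and their median log2 fold change was 2.37. Cxcl9 rose in IkkB KO hepatocytes. The dendritic cell sum was 435 in Double KO, 192 in Shp2 KO and 434 in IkkB KO, against 192 in WT in liver. The sum in hepatocytes was 96.7 in Double KO, 70.8 in Shp2 KO and 383 in IkkB KO, against 68.0 in WT, and Ccl17 and Ccl22 were highest in IkkB KO too. The MHC class II genes Cd74, H2-Aa, H2-Ab1 and H2-Eb1, which macrophages and B cells also express, made up between 97.6% and 99.2% of the sum in every genotype of both tables. Without them the sum over 7 markers in liver was 5.22 in Double KO, 3.21 in Shp2 KO and 3.82 in IkkB KO, against 3.59 in WT. In hepatocytes those 7 markers summed to 1.88 in Double KO, 1.60 in Shp2 KO and 3.04 in IkkB KO, against 1.65 in WT. The part of these cells and genes in the chemokine results was not tested.

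Among the resident cells, the bile duct sum in liver was 151 in Double KO, 52.3 in Shp2 KO and 41.2 in IkkB KO, against 66.9 in WT. The sum in hepatocytes was 63.6 in Double KO, 46.4 in Shp2 KO and 32.9 in IkkB KO, against 20.2 in WT. Spp1, which other cells also make, carried both sums. Without it the liver sum was 13.9 in Double KO, 10.4 in Shp2 KO and 10.1 in IkkB KO, against 14.4 in WT, and the hepatocyte sum lay between 7.51 and 7.93 in every genotype. In liver 2 of 8 tested bile duct markers rose and 1 fell in Double KO, beside 11.5% and 6.62% of all tested genes. Of 8 tested, 3 fell in Shp2 KO liver and 5 in IkkB KO liver, beside 4.1% and 2.17% of all tested genes. In Shp2 KO hepatocytes 3 of 8 tested bile duct markers rose (Prom1, Spp1 and Epcam) and 1 fell (Sox9), beside 7.13% and 4.53% of all tested genes. Prom1 and Spp1 also rose in Double KO hepatocytes, where Sox9 fell, and Spp1 rose in IkkB KO hepatocytes. The stellate cell sum was 283 in Double KO, 220 in Shp2 KO and 223 in IkkB KO, against 200 in WT in liver. Ecm1 made up between 17.0% and 44.9% of it and fell in Double KO, from 80.7 in WT to 48.0. Without Ecm1 the liver sum was 235 in Double KO, 139 in Shp2 KO and 123 in IkkB KO, against 119 in WT. Of 14 tested stellate cell markers, 7 rose and 1 fell in Double KO liver, beside 11.5% and 6.62% of all tested genes. In Shp2 KO liver 2 rose and 1 fell of 14, beside 5.23% and 4.1% of all tested genes, so the fall is near that share. In IkkB KO liver 0 rose and 2 fell of 14 (Acta2 and Col3a1), beside 2.37% and 2.17%. The median log2 fold change of the tested stellate cell markers in IkkB KO liver was -0.12. The stellate cell sum in hepatocytes was 119 in Double KO, 112 in Shp2 KO and 245 in IkkB KO, against 72.4 in WT. The endothelial sum was 145 in Double KO, 106 in Shp2 KO and 139 in IkkB KO, against 141 in WT in liver. The sum in hepatocytes was 116 in Double KO, 74.2 in Shp2 KO and 128 in IkkB KO, against 66.0 in WT. B cell sums were between 5.77 and 8.80 in liver and under 2 in hepatocytes. The hepatocyte sum, over 9 markers with a value in every genotype, was between 11959 and 15463 in liver and between 12358 and 15338 in hepatocytes. Without Ttr, its most abundant gene, the liver sum was 6228 in Double KO, 6203 in Shp2 KO and 5414 in IkkB KO, against 4361 in WT. That sum includes Cyp3a11, at 1596 in Double KO, 1215 in Shp2 KO and 346 in IkkB KO, against 368 in WT. Of 9 tested hepatocyte markers, Cyp3a11 rose and G6pc fell in Double KO liver, beside 11.5% and 6.62% of all tested genes, and the median log2 fold change was 0.05. No marker on these lists was at 0 in every genotype of a table.

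**Figure D5:**
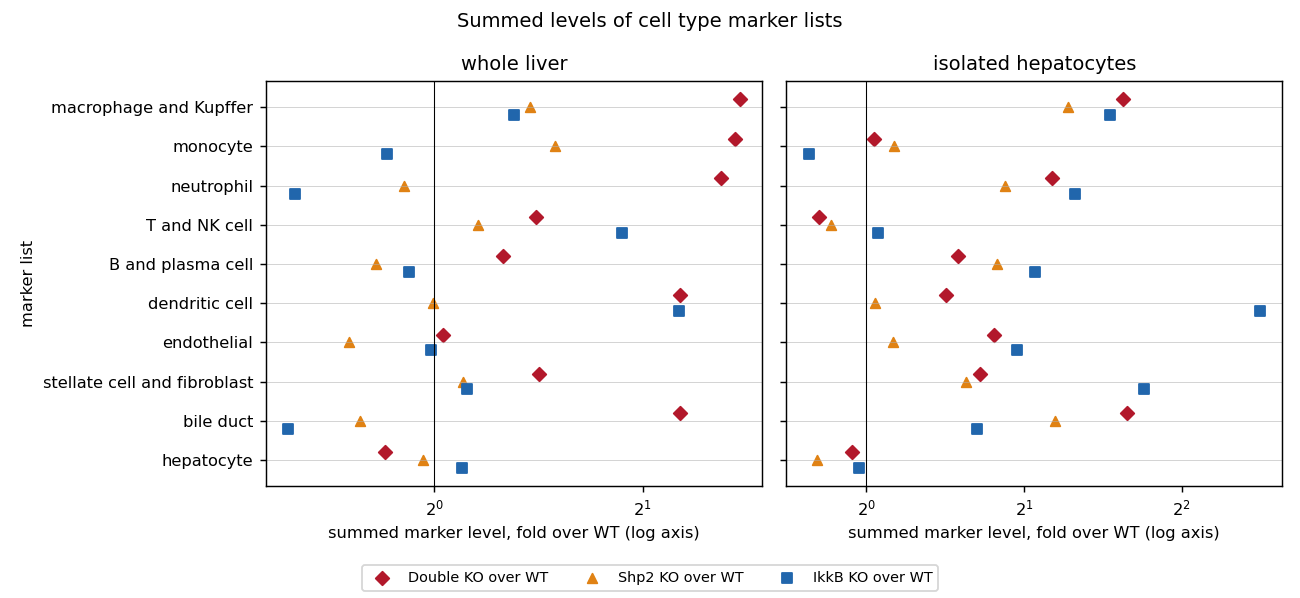
Summed level of each cell type marker list as a fold over WT (log axis) in whole liver and isolated hepatocytes, for Double KO, Shp2 KO and IkkB KO; sums cover markers with a value in every genotype, and the vertical line is WT. Macrophage and stellate cell sums lie right of the line for all 3 knockouts in both panels. The bile duct points are carried by Spp1, the T and NK cell points by Zap70 and the dendritic cell points by MHC class II genes.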

How the data were processed

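PolyA libraries (TruSeq v2, per the labels' protocols) from 24 samples were run through FastQC and Cuffdiff on mm9, as the submitters' processing notes list them. For the aligner, annotation, versions and strand handling, nothing is given in the sources used here, so overlapping and antisense genes are uncertain. The authors deposited 2 tables that list 1 expression value for each gene in each genotype. Their headers leave its unit unnamed (other), and Cuffdiff's convention is FPKM. They also deposited log2 fold changes, a test statistic (a score, not used), p-values and q-values, per the file headers. The tables hold 0 columns of values per sample and no counts. Depth is unknown, and neither SDs nor intervals nor tests of replicates could be computed.

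Calls used the deposited q-value under 0.05, a Cuffdiff status of OK and a minimum value of 0.1 in either genotype compared. The smallest q was 0.000955 in liver and 0.00048 in hepatocytes. The members named were those called against WT in either table and the 5 with the highest WT level in each. Other members given with values, and the markers Clec4f and Mpo, were chosen after their values were seen. Fold changes were turned so that the knockout, or Double KO, is over its comparator. Rows too abundant for Cuffdiff to report (its HIDATA status) are listed at 0 and were left out, and marker sums cover genes with a value in all 4 genotypes. The sums without their most abundant genes were added after seeing the data. Some results that enter the counts are not reported here by gene. The members and the 25 gene lists were chosen with earlier results of these data known. Promoters were searched for the NF-κB consensus on both strands in the RefSeq set. Alternatives were another q threshold, adjustment within a comparison, a minimum fold, other filters on low values and pseudocounts. The adjustment was checked on simulated p-values. The software was matplotlib 3.10.9, scipy 1.17.1, pandas 2.3.3 and numpy 2.4.6 under Python 3.11.15.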

Additional observations from a re-analysis of the deposited data

How the results depend on the processing

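No paired analysis was possible because the deposited columns carry no replicate, and for the same reason no replicate could be left out. On the log2(value + 1) scale the medians over tested members shrank without changing sign. In liver they were 0.44 (Double KO against WT), 0.13 (Shp2 KO against WT), 0.10 (IkkB KO against WT), 0.27 (Double KO against IkkB KO) and 0.41 (Double KO against Shp2 KO). In hepatocytes they were 0.40 (Double KO), 0.21 (Shp2 KO) and 0.40 (IkkB KO), all against WT. The liver median of Shp2 KO against IkkB KO turned to -0.00596 when a value of at least 1 was required. With q under 0.01, the members called were 7 for Double KO against Shp2 KO in liver, 4 for Double KO against WT and 3 for Shp2 KO against WT in hepatocytes. With a log2 fold change of at least 1 as well, they were 8 for Double KO against Shp2 KO in liver and 1 for Double KO against IkkB KO in hepatocytes. With a pseudocount of 0.1 the difference of Double KO from the sum of single changes turned to -0.23 for Cxcr4 in hepatocytes, and it was 3.98 for Ccl8 and 2.70 for Cxcl13 in liver and -2.62 for Ccl2 in hepatocytes. The cause of these shifts was not tested. Depth is unknown, so low members may have missed the test for want of reads.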
